A study of Rattus norvegicus with 2 samples.

Results

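Calmodulins and calmodulin-dependent kinases were followed on expression arrays of cultured rat astrocytes, glial cells that support neurons. The group was defined as 9 genes (Calm2, Calm3, Camk1, Camk2a, Camk2b, Camk2d, Camk2g, Camkk2 and Camk4), and every probe set annotated with 1 of these symbols and no other was taken, which gave 17 of the 31099 probe sets on the array and 8 of 14217 named genes. No such probe set was found for Calm3, which was not analysed here. The 5ppase culture expressed 5ppase together with a red fluorescent protein from an IRES2 vector, and the control culture expressed the red fluorescent protein alone. Both came from hippocampus of embryonic day 18 rats with a Sprague-Dawley background and are labelled genotype normal. Total RNA of each culture was hybridised to 1 single-colour Affymetrix array. The design was meant to contrast a culture without calcium signalling (5ppase) with a culture in which it is active (control). The arrays do not measure calcium, so how far signalling was reduced is not known here. The sources used here do not give the share of cells that carried the construct, its promoter or the number of animals behind a culture. There were no replicates, so every difference below is a description of 2 arrays, without a test, and their number limits the precision.

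Calmodulin is a small protein that changes shape when calcium binds to its EF-hand loops and then switches on target enzymes. Calm2 and Calm3 are separate genes for the same calmodulin protein. Among its targets are serine/threonine kinases. The CaM kinase II subunits, encoded by Camk2a, Camk2b, Camk2d and Camk2g, assemble into large holoenzymes and can hold their activity by autophosphorylation. Camkk2 phosphorylates and activates the CaM kinases I and IV (Camk1, Camk4) and also AMPK. In brain, the alpha and beta subunits of CaM kinase II and CaM kinase IV are best known from neurons, whereas the delta and gamma subunits are found in many tissues.

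Signals are MAS5 values on a linear scale in arbitrary units. The array medians were 109.4 (5ppase) and 107.1 (control). A floor of 62.0, the 40th percentile of both arrays pooled, separated low signals. It is a percentile and not a detection call. A probe set was compared where neither array was under the floor and at least 1 reached 208, the 60th percentile. Of the 17 probe sets, 5 met this rule (Calm2, Camk1, 2 of Camk2d and 1 of Camk2g). A further 2 were above the floor on both arrays but not bright, 3 were above it on 1 array only, and 7 were under it on both.

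Promoter sequence is shown for a member with a bright signal on both arrays (Camk2g) and for a dim one (Camk4), both described below. A link between promoter sequence and signal was not tested. RefSeq promoters (GRCr8) were matched for 6 of the 9 genes. A window of 250 bases before the listed start was searched on both strands, and only bases outside the gene's annotated span are printed. The Camk2g stretch is chr15:3553106-3553237 on the plus strand (132 bases), and the Camk4 stretch is chr18:24856902-24857151 on the plus strand (250 bases). Capitals mark GGGCGG, the GC box, or its reverse complement CCGCCC.
Camk2g: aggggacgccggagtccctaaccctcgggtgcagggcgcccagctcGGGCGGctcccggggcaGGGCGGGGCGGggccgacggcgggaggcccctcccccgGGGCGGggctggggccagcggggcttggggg
Camk4: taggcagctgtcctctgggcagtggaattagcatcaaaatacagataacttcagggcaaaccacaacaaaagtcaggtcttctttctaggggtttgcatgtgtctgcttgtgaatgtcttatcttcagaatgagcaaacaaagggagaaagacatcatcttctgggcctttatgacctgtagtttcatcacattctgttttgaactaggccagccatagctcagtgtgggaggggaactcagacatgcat
The printed Camk2g stretch holds 4 GGGCGG matches, a pair of them overlapping, and the Camk4 stretch holds 0. Over the whole 250-base window, Camk2g had 80.8% G+C, 30 CpG and 7 GGGCGG matches, whereas Camk4 had 44.4% G+C, 0 CpG and 0 matches. Camk2d (75.2%, 28 CpG, 3 GGGCGG matches) and Camk2b (80.4%, 47 CpG, 5 matches) were also rich in G+C, and Camk2a (60.4%, 10 CpG) and Camk1 (57.2%, 10 CpG) had 0 matches. GGGCGG or CCGCCC occurs in 30.5% of the 33469 RefSeq promoter windows, whose median is 51.2% G+C and 5 CpG. TGACGTCA, the cyclic AMP response element bound by CREB, occurs in 1.6% of these windows and in 0 of the 6, and CCAAT (34.0%) and TATAAA (12.9%) also had 0 matches in the 6. Of the 4 windows not printed, those of Camk1 and Camk2a lie wholly inside the annotated gene, and those of Camk2b and Camk2d hold only 73 and 23 bases before it, so their counts are largely not of upstream sequence.

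Calm2 had the brightest member probe set. It gave 14328 on the 5ppase array and 15381 on the control array (log2 ratio -0.10). Every ratio in the text is that of 5ppase over control. The signal stood at the 99.2nd percentile of the 5ppase array and the 99.3rd of the control array. Of all 13051 compared probe sets, 73.9% had a larger ratio in absolute size. Rat carries several calmodulin pseudogenes, and no source used here says whether this probe set separates Calm2 from them. In these bulk RNAs, fewer cells that express a gene and less RNA per cell cannot be told apart.

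Camk1 encodes CaM kinase I, a broadly expressed cytoplasmic kinase. It gave 1079 on the 5ppase array and 1140.5 on the control array (log2 ratio -0.08), and 79.4% of compared probe sets had a larger ratio. Its upstream kinase gene Camkk2 was at the edge of the floor. The brighter of its 2 probe sets gave 60.8 on the 5ppase array and 70.2 on the control array, at least 1.13-fold lower in 5ppase when the floor stands in for the 5ppase signal. The other gave 41.9 (5ppase) and 19.7 (control), under the floor on both.

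The 4 CaM kinase II genes were read by 11 probe sets. Camk2d, the delta subunit, gave 5903 on the 5ppase array and 5535 on the control array at its brightest probe set (1368834_at, log2 ratio 0.09). Its second probe set, 1371263_a_at, gave 222 and 276, in the same order (-0.31). The third, 1368833_at, was above the floor in 5ppase only (69.4, against 50.7 in control, at least 1.12-fold higher). The ratios of the brighter Camk2d sets differ in sign and lie 0.40 apart. Of 1881 genes with 2 compared probe sets, 23.1% had a wider gap. The spread over these pairs was 0.26 (log2, the SD of the difference within a pair, scaled to a single probe set). It covers differences between probe sets of a gene read on the same 2 arrays. Differences between cultures, RNA preparations or arrays that both probe sets share are not in it.

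Camk2g, the gamma subunit, was slightly higher on the 5ppase array at both probe sets. The bright one, 1369993_at, gave 1035 in 5ppase and 899.7 in control (log2 ratio 0.20), and 51.9% of compared probe sets had a larger ratio. The dim one, 1381936_at, gave 122.9 in 5ppase and 92.3 in control (0.41). The ratio of the bright Camk2g set exceeded that of the bright Camk2d set by 0.11, and that of Calm2 by 0.30, on the log2 scale. Both differences are smaller than the SD of the difference between probe sets of a gene over the 1881 pairs. That SD was 0.36 on the log2 scale.

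The neuronal subunits gave low signals. Camk2b, the beta subunit, gave 114.0 in 5ppase and 94.5 in control at 1375575_at (log2 ratio 0.27, above the floor but under 208), and 30.0 and 31.7, in the same order, at its other probe set. Camk2a, the alpha subunit, did not reach the floor on either array at any of its 4 probe sets. These sets gave 55.2, 2.6, 14.9 and 2.0 in 5ppase and 8.5, 42.4, 3.8 and 5.5 in control, in the same order of probe sets. The first and the third were higher in 5ppase and the others lower, so the 4 gave no common direction. Among all probe sets with a mean signal under the floor, 69.5% differed by at least 1.5-fold in either direction when no floor was applied.

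Camk4, CaM kinase IV, a kinase found in the nucleus that phosphorylates CREB, was also dim. Its brighter probe set, 1369752_a_at, gave 51.0 in 5ppase and 80.4 in control, at least 1.30-fold lower in 5ppase with the floor in place of the 5ppase signal. Without the floor the log2 ratio was -0.66. Of all probe sets with a mean signal between 62.0 and 208, 34.3% lay at least 1.5-fold apart on that scale, and the middle 50% of their log2 ratios ran from -0.38 to 0.42. The other Camk4 probe set gave 2.1 (5ppase) and 22.2 (control), under the floor on both.

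**Figure D1:**
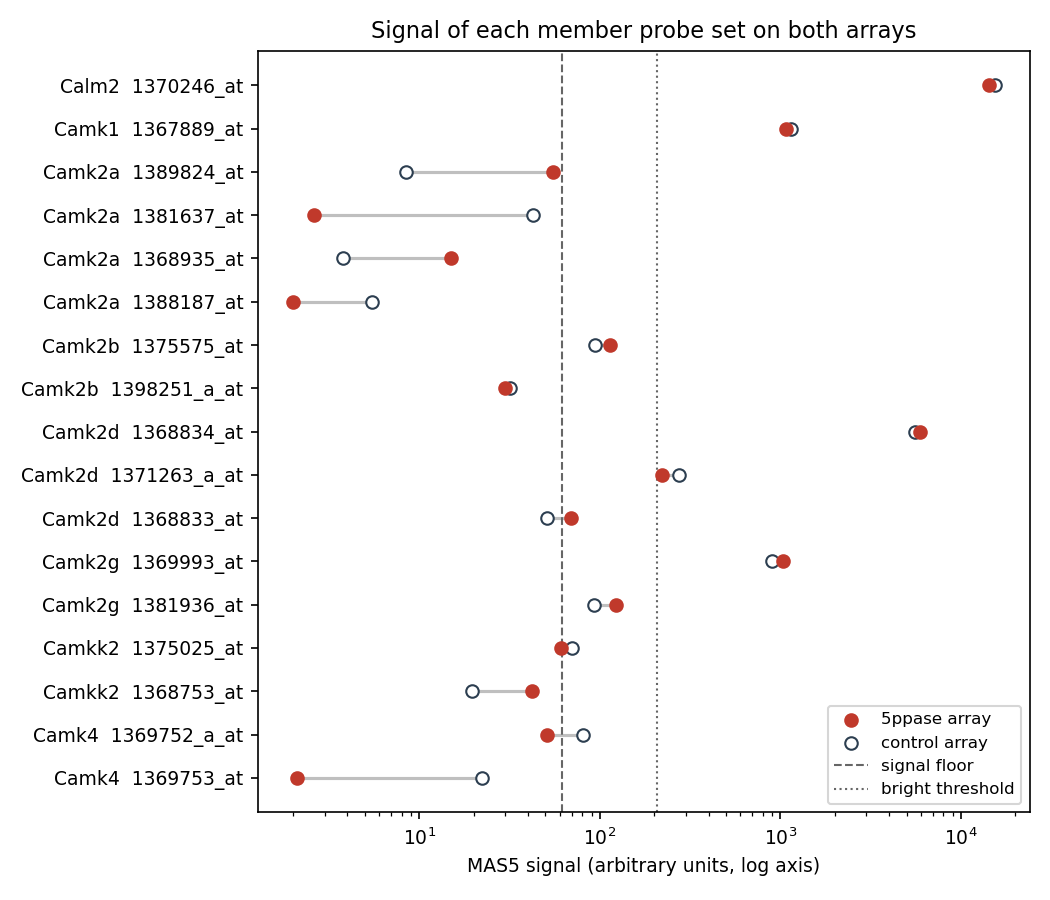
MAS5 signal (log axis, arbitrary units) of the 17 member probe sets on the 5ppase array (filled) and the control array (open), 1 array each; the dashed line is the floor of 62.0 and the dotted line the bright threshold of 208. Calm2, Camk1 and the brightest Camk2d and Camk2g sets nearly coincide on both arrays, and all 4 Camk2a sets lie left of the floor.

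Signals of different probe sets depend on how well each binds its target, so they rank brightness and not transcript number. By rank within an array, the brightest set of a CaM kinase II gene fell at the 97.5th (5ppase) and 97.4th (control) percentile for Camk2d. For Camk2g it fell at the 84.9th and 82.8th and for Camk2b at the 50.6th and 47.9th, in the same order of arrays. Every Camk2a set was under the floor, and the highest fell at the 37.0th percentile in 5ppase (1389824_at) and the 32.8th in control (1381637_at). On either array the bright Camk2d and Camk2g sets lay above 208 while every Camk2b and Camk2a set lay below it.

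None of the 5 compared member probe sets was at least 1.5-fold apart between the arrays (0 of 5), beside 11.9% of all compared probe sets. None was 2-fold apart, beside 3.21%. By signal, 5.97% of all probe sets with a mean over 1000, where Calm2, Camk1 and the brightest Camk2d set lie, were at least 1.5-fold apart. Of those with a mean between 208 and 1000, where the other 2 compared sets lie, 12.9% were. With 5 probe sets a count of 0 lies near the background. The 5 log2 ratios ran from -0.31 to 0.20, 2 above 0 and 3 below, and the middle 50% of all compared probe sets ran from -0.23 to 0.19. Taking 1 probe set per gene, 7 member genes had a mean signal above the floor. Their median log2 ratio was -0.08, with a range from -0.37 (Camk4) to 0.27 (Camk2b), beside a median of -0.012 over 10254 genes measured the same way. The values of Camk4 and Camkk2 in that median are bounds.

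**Figure D2:**
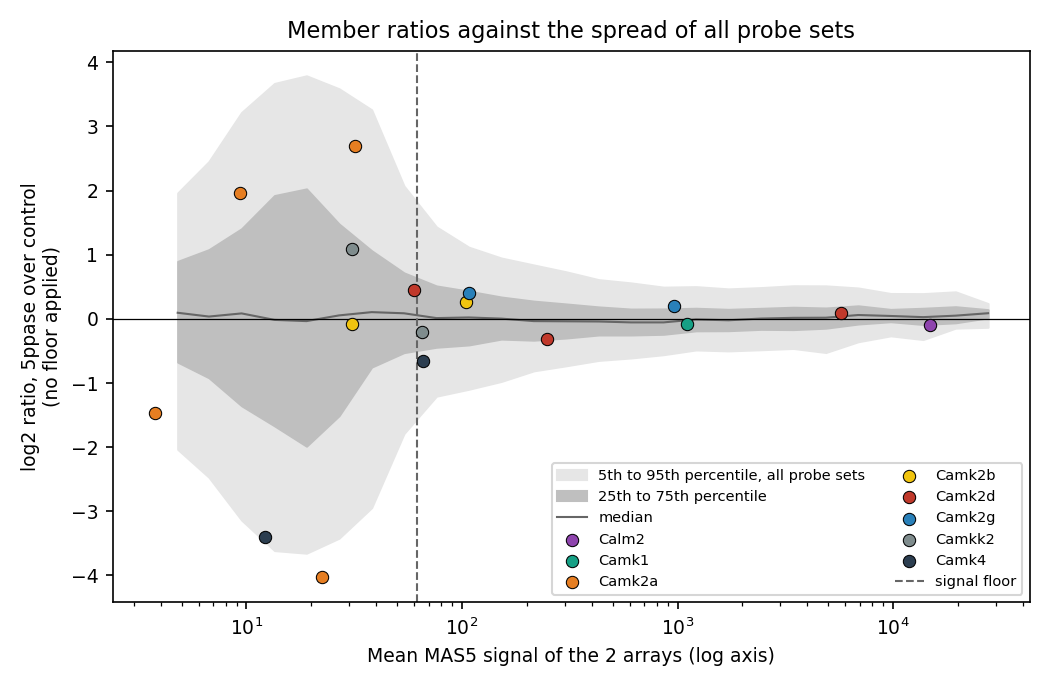
Log2 ratio of 5ppase over control without a floor (vertical axis) against the mean signal of the 2 arrays (log axis) for the 17 member probe sets (points coloured by gene); shading gives the percentile ranges of all probe sets at that signal. The bright members lie near 0, and the wide ratios of Camk2a and of the dim Camk4 set belong to signals under the floor of 62.0, where the shaded range is widest.

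Neuron markers were read beside these kinases. Of 17 of them, 8 were above the floor in 5ppase and 7 in control, and their summed signal was 16057 in 5ppase and 10646 in control. Stmn2, a tubulin regulator of growing neurites, gave 11065.5 in 5ppase and 3766 in control. Without it the sum was 4991 in 5ppase and 6880 in control, the other way round. Of the 8 measured neuron markers 3 were higher and 5 lower in 5ppase, with a median log2 ratio of -0.33. Among the lower were Gad1 (-1.24), Map2 (-0.52) and Eno2 (-0.49). The 3 higher were Tubb3 (1.72), Stmn2 (1.55) and Slc17a7 (0.44, a bound). All of these were named after their values were seen. Rbfox3, Snap25, Syt1, Nefl, Nefm, Dcx, Gad2, Slc17a6 and Elavl4 were at or under the floor on both arrays, as Camk2a was. The part of these cells in the Camk2b and Camk4 signals was not tested. Of 13 astrocyte markers found, 10 were above the floor in 5ppase and 12 in control, with a summed signal of 54653 and 79242 in the same order. Of the 11 measured, 2 were higher and 9 lower in 5ppase, with a median log2 ratio of -0.73. At least 1.5-fold lower were 7, beside 6.89% of all measured genes, and that much higher 0, beside 7.48%. The part of this difference in the member signals was not tested. Slc1a2, a glutamate transporter that defines mature astrocytes, did not reach the floor on either array, and the water channel gene Aqp4 was under it in 5ppase only. Other astrocyte markers were bright on both arrays. Gfap gave 7407.8 in 5ppase and 17525.0 in control (-1.24), and Fabp7 1485.7 and 5972.0 (-2.01). The 2 higher in 5ppase were S100b (3611.0 and 3483.2, 0.05) and Gja1 (7655.9 and 7281.8, 0.07, with 1.04 at its second probe set). Summed signals of other marker lists were 128966 (5ppase) and 140092 (control) for fibroblast and meningeal genes, and 2250 and 3912 for the oligodendrocyte lineage. Of the 9 measured fibroblast and meningeal genes 3 were higher and 6 lower in 5ppase, from -3.26 (Mgp) to 0.87 (Thy1). Of the oligodendrocyte sums, Cldn11 gave 47.2 and 1370.9, whereas Cspg4 gave 629.5 and 261.5. Of the 4 measured oligodendrocyte genes 1 was higher and 3 lower in 5ppase. Mog, Mag, Mobp, Olig1, Olig2 and Sox10, also named after their values were seen, were under the floor on both arrays. The sums for microglia were 2623 and 1334 and those for endothelium 642 and 1403, again 5ppase first. Most of the former came from Tmem119 (2272.6 and 1078.1) and most of the latter from Ocln (384.0 and 1211.7). Of the 3 measured microglia genes 3 were higher in 5ppase, and of the 2 measured endothelial genes 1 was higher and 1 lower. Cx3cr1, Itgam, P2ry12, Ptprc, C1qa, C1qb and Trem2 did not reach the floor on either array, nor did Pecam1, Kdr, Tek, Vwf and Cldn5. All these genes were picked with their signals known.

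The list of the closest relatives of the members held other calmodulin-like proteins, CaM kinase relatives and CaM kinase inhibitors and phosphatases, and 13 of the 19 genes found were measured. Its median log2 ratio was -0.12, with 4 genes higher and 9 lower in 5ppase, from -0.52 (Dclk2, named after its value was seen) to 0.63 (Camk2n2, a bound). No gene was at least 1.5-fold lower, beside 6.89% of all measured genes, and 1 was at least 1.5-fold higher, beside 7.48%, so the counts lie near the background. That gene was Camk2n2, an inhibitor of CaM kinase II, named after its values were seen, at 96.2 in 5ppase and 51.3 in control (at least 1.55-fold higher). The other inhibitor gene, Camk2n1, also named after its values were seen, gave 141.7 in 5ppase and 167.4 in control at one probe set (-0.24) and 141.6 and 89.0 at the other (0.67). The brightest genes of the list were Dclk1, a microtubule-associated kinase (2696 in 5ppase and 2952.5 in control, -0.13), and Dapk3, a death-associated protein kinase (1570.2 and 1479, 0.09). Camkk1, the paralogue of Camkk2 and likewise named after its values were seen, gave 160.6 in 5ppase and 173.2 in control (-0.11).

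Proteins that bind or store calmodulin went both ways. Of 20 measured genes, 12 were higher and 8 lower in 5ppase, with a median log2 ratio of 0.09. At least 1.5-fold higher were 2, beside 7.48% of all measured genes, and that much lower 0, beside 6.89%, counts near the background. Myo5a, the motor myosin Va that carries calmodulin as a light chain, gave 438 in 5ppase and 249 in control (0.82). Akap5, a scaffold that binds calmodulin, protein kinase A and calcineurin, gave 322.6 in 5ppase and 205.6 in control (0.65). Smooth muscle markers had a summed signal of 98770 in 5ppase and 67680 in control. Of the 6 measured, 5 were higher and 1 lower in 5ppase. The part of smooth muscle markers in this list was not tested. Of the neuronal calmodulin buffers, named after their values were seen, Gap43 and Pcp4 were under the floor on both arrays, and Nrgn was just above it (69.0 in 5ppase and 83.0 in control, -0.27).

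Among calmodulin-regulated enzymes 11 genes were measured, with 6 higher and 5 lower in 5ppase and a median log2 ratio of 0.18. That median was -0.18 with the floor raised to the 60th percentile and -0.10 with it lowered to the 25th. At least 1.5-fold higher were 2 of the 11, beside 7.48% of all measured genes, and that much lower 1, beside 6.89%. These counts are too small to be set apart from the background. Pde1b, a calmodulin-stimulated phosphodiesterase that breaks down cyclic nucleotides, gave 62.9 in 5ppase, just above the floor, and 210.4 in control (-1.74). Its second probe set gave 8.3 in 5ppase and 13.7 in control, both under the floor. Nos2, the inducible nitric oxide synthase, gave 105.2 in 5ppase and 69.5 in control (0.60). Itpka, a calmodulin-activated kinase of inositol trisphosphate, gave 98.2 in 5ppase and 34.3 in control (at least 1.58-fold higher). All of these signals were below 208 except that of Pde1b in control.

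Nuclear factors downstream of the CaM kinases had a median log2 ratio of -0.08 over 17 measured genes, 6 higher and 11 lower in 5ppase. The brightest were the CREB relative Atf1 (1808 in 5ppase and 1958 in control, -0.12) and the serum response factor Srf (1003 and 891.4, 0.17). At least 1.5-fold higher were 0 of 17, beside 7.48% of all measured genes, and that much lower 1 of 17, beside 6.89%, again near the background. The 1 gene was Crtc1, a CREB coactivator named after its values were seen, at 19.4 in 5ppase and 147.6 in control (at least 2.38-fold lower). Its second probe set did not reach the floor on either array. Creb1, the kinases' best known nuclear substrate and also named after its values were seen, gave 369.8 in 5ppase and 403.7 in control (-0.13) at one probe set. At the other it gave 196.4 in 5ppase and 62.5 in control, the latter just above the floor (1.65), so its probe sets disagreed.

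The AMPK list, which holds the subunits of a substrate of Camkk2 and the genes of its other upstream kinase complex, had 8 measured genes. Of these 5 were higher and 3 lower in 5ppase, and the median log2 ratio was 0.02. None of the 8 was 1.5-fold apart, beside 7.48% of all measured genes higher and 6.89% lower. The scaffold gene Cab39 gave 2066 in 5ppase and 2043 in control (0.02, and -0.01 with a common median), but 1391.7 and 2486 at its second probe set (-0.84). The subunit gene Prkag1 gave 1462 in 5ppase and 1692 in control (-0.21). Stk11, the kinase of the upstream complex and named after its values were seen, was not measured. It gave 14.8 in 5ppase and 33.2 in control, under the floor on both arrays.

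Other EF-hand proteins had 17 measured genes, 12 higher and 5 lower in 5ppase, with a median log2 ratio of 0.12. At least 1.5-fold higher were 2, beside 7.48% of all measured genes, and that much lower 1, beside 6.89%, counts near the background. Calb1, the buffer calbindin, gave 51.5 in 5ppase and 208.4 in control (at least 3.36-fold lower). Hpcal1, a neuronal calcium sensor of the hippocalcin family, gave 2909 in 5ppase and 1847.5 in control (0.65), with 0.37 at its second probe set. Kcnip1, a calcium-sensing partner of potassium channels, gave 182.1 in 5ppase and 120.9 in control (0.59). Its second probe set did not reach the floor on either array.

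**Figure D3:**
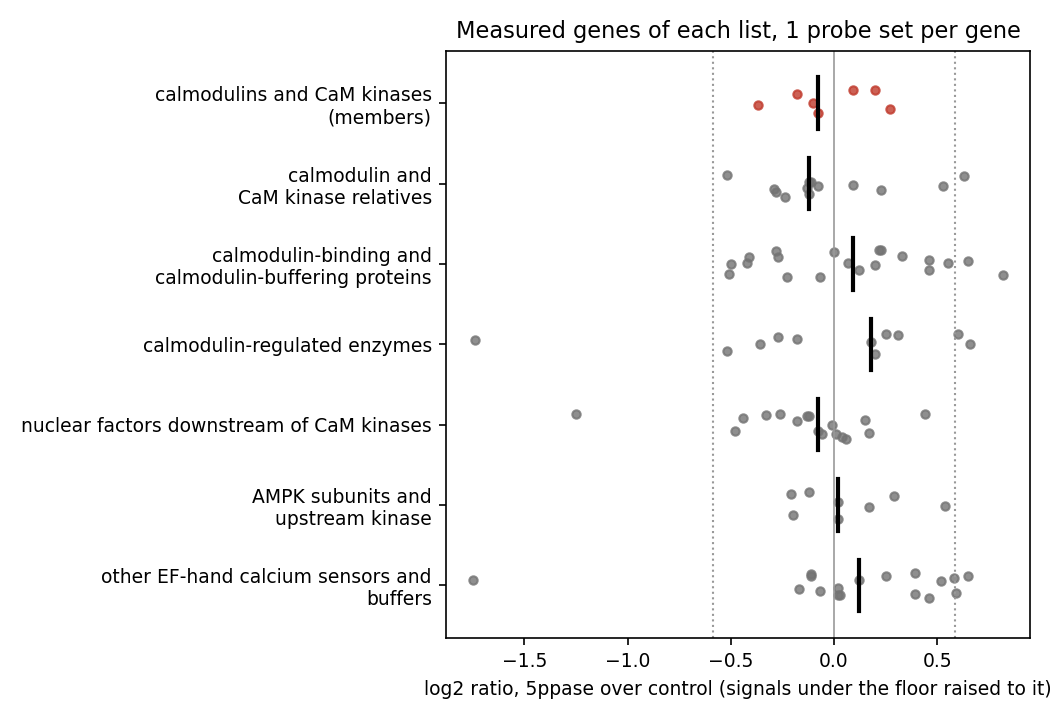
Log2 ratio of 5ppase over control for each measured gene (points) of the member group and of the 6 related lists, with 1 probe set per gene and signals under the floor raised to it; the black bar is the median of a list and the dotted lines mark 1.5-fold. All 7 measured member genes lie between the dotted lines, and the points furthest to the left are Calb1, Pde1b and Crtc1.

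Across the 6 lists 86 of 115 genes found were measured. Of these 7 were at least 1.5-fold higher in 5ppase (8.14%, beside 7.48% of all measured genes) and 3 were at least 1.5-fold lower (3.49%, beside 6.89%).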

How the data were processed

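RNA of 1 5ppase and 1 control astrocyte culture, grouped by title, was compared. Per the submitters' processing notes the authors used MAS5, whose version and settings the sources used here do not give. It gave the deposited single-colour intensities on a linear scale, 1 per probe set. Per the labels' protocols, biotin-labelled cRNA was made from 6 µg of total RNA. Both arrays had a trimmed mean of 500.2 (2% off each end) and were set to a common one, which keeps any trend with signal between arrays. Detection calls were not used.

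Symbols came from a platform annotation table, updated by gene identifier in a RefSeq table (20764 of 20832 probe sets with 1 symbol matched; 0 changed). A further 436 had several symbols and 9831 were not listed, and these went unnamed; 57 control probe sets were left out. Ratios are log2 of 5ppase over control after raising signals under the floor to it, which understates differences of dim genes. Where a gene stands for its list, its brightest probe set by mean signal was used, and measured means that this mean exceeded the floor.

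The members and gene lists were chosen with earlier results of these data known. All members were described; of each list, up to 4 genes at least 1.5-fold apart or, with fewer than 2 such genes, the 2 brightest were named, and other genes are marked. Alternatives were other scalings, floors and probe set choices. The procedure was tested on simulated data with large changes seeded only in probe sets of high signal. Recovery of small changes or of changes in dim probe sets was not tested. Python 3.11.15, pandas 2.3.3, numpy 2.4.6 and statsmodels 0.14.6 were used.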

Additional observations from a re-analysis of the deposited data

How the results depend on the processing

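The alternatives were no rescaling, quantile normalization, a common median, subtraction of a loess trend, floors at the 25th and 60th percentiles, a pseudocount of 6.4 with no floor or filter, and other choices of probe set. Of 59 recomputed member ratios, 58 lay within the 0.26 probe set spread of the reported value; Camk4 was at -0.66 with the floor at the 25th percentile. No measured member probe set changed sign. With the pseudocount, which also admits signals under the floor, 6 of 17 member probe sets were at least 1.5-fold apart (33.1% of all probe sets) and 4 were 2-fold apart (18.9%). The member median of -0.08 was 0.01 with either other floor and with the pseudocount, and 0.05 over 2 second probe sets. The median of calmodulin-binding proteins was -0.03 with the pseudocount. That of calmodulin-regulated enzymes was -0.10 (floor at the 25th percentile), -0.18 (60th), -0.18 (pseudocount) and -0.03 (second probe sets). That of nuclear factors was 0.08 with second probe sets, and that of EF-hand proteins was 0.03 with the floor at the 25th percentile and -0.09 with second probe sets. These settings also change which genes are measured; other causes were not tested. No paired analysis was possible because each group has 1 array.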
